A study of Mus musculus with 24 samples.

Results

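The cytosolic ribosomal protein genes encode the proteins that, with the ribosomal RNAs, build the small and the large subunit of the ribosome that translates cytoplasmic mRNA. They were followed here in Lys-GFP-ER-HoxA9 cells, a mouse myeloid progenitor line. The genes were chosen by symbol: protein-coding genes named Rpl or Rps followed by a digit, with Rplp0, Rplp1, Rplp2 and Rpsa, and with at least 100 counts summed over the 24 libraries. Of 45319 gene rows in the deposited count table, 85 carried such a symbol and 83 passed the count minimum, 33 of the small subunit and 50 of the large one, 3 of which form the stalk. The remaining pair were Rpl39l, with 2 counts in all, and Rpl10l, with 0, copies of Rpl39 and Rpl10. No expression value other than that minimum entered this rule, though the gene family was chosen with earlier results of these data known.

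Stranded, oligo-dT-selected RNA sequencing was made from cells labelled R07 at 12, 36, 72 or 120 h (1 library each) and from cells cultured without beta-estradiol for 0, 4, 8, 12, 24, 36, 48, 72, 96 or 120 h (2 libraries each, called A and B after the columns of the table). All cells were grown in RPMI1640 with serum, stem cell factor and 0.5 micromolar beta-estradiol before that. In such lines the transcription factor HoxA9 is fused to the hormone-binding domain of the estrogen receptor, so that estradiol keeps it active, and Lys-GFP names a green fluorescent reporter at the lysozyme gene. R07 is known only by its code, the labels do not say what it is or whether estradiol was present with it, and its samples carry the same withdrawal text as the others. The labels give neither a number of clones nor a separate culture for each library, so a p-value measures the spread between libraries, which may be technical.

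Ribosomal proteins are needed in equal amounts, and their mRNAs are among the most abundant of dividing cells. Many of these mRNAs begin with a C followed by a run of pyrimidines, the 5′ terminal oligopyrimidine (TOP) motif, through which the kinase mTORC1 and the RNA-binding protein Larp1 control their translation. Ribosome content is known to be high in proliferating progenitors and low in mature granulocytes.

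The TOP motif sits at the transcription start, so the bases around the annotated start are shown for several members that the results turn on. Each line holds the 30 bases from 10 before to 20 after the RefSeq start (GRCm38.p6), 5′ to 3′ on the gene's strand, with a pyrimidine run of 6 or more in capitals.

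Rps6: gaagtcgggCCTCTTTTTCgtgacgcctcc

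Rplp2: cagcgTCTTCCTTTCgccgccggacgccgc

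Rpl12: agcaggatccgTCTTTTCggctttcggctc

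Rpl10: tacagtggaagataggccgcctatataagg

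Rpl37a: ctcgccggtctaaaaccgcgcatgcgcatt

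Rps2: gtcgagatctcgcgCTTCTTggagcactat

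Rpl9: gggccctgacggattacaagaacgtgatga

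Rps27: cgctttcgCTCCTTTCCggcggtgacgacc

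Rps27rt: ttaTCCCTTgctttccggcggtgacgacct

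Rps27l: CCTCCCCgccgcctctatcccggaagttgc

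Rpl22: cctgggaaaagcaatagctggccgatcgtt

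Rpl22l1: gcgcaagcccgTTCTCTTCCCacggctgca

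Rpl7l1: gctgcgcaagcgcagtagctgaagcaccgg

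Rpl3l: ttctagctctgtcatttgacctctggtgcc

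These windows lie at chr4:86857348-86857377 (Rps6, minus strand), chr7:141447641-141447670 (Rplp2, plus), chr2:32961702-32961731 (Rpl12, plus), chrX:74270806-74270835 (Rpl10, plus), chr1:72711250-72711279 (Rpl37a, plus), chr17:24720053-24720082 (Rps2, plus), chr5:65391412-65391441 (Rpl9, minus), chr3:90213629-90213658 (Rps27, minus), chr9:114982720-114982749 (Rps27rt, minus), chr9:66946076-66946105 (Rps27l, plus), chr4:152325716-152325745 (Rpl22, plus), chr3:28805498-28805527 (Rpl22l1, plus), chr17:46782637-46782666 (Rpl7l1, minus) and chr17:24727816-24727845 (Rpl3l, plus). A promoter was listed for 63 of the 83 members. Of those, 35 (55.6%) held a run of 6 or more pyrimidines (C or T, on the start strand) in the 30-base window, against 28.7% of all 32851 promoters listed. A run was counted wherever it lay in the window, so it need not begin the mRNA. Those of Rps27l and Rps27rt end before the listed start. The runs of Rps6 and Rpl22l1 were 10 bases long, whereas the windows of Rpl10, Rpl37a, Rpl22, Rpl9, Rpl7l1 and Rpl3l held none of 6. The window of Rpl37a ends before the GENCODE gene, and that of Rpl22 holds only its first bases. By that annotation neither shows the bases that begin the mRNA. In the whole 300-base promoters, read on both strands, GGAAG was found in 82.5% of the members and 64.1% of all promoters, and the longer CCGGAAG, which contains it, in 27.0% and 6.91%. TATAAA was found in 4.76% and 12.4%, and ATGGCGG in 4.76% and 2.21%. The listed starts of Rps2, Rplp2, Rpl12, Rpl22l1 and Rps6 lie inside the GENCODE gene and not at its edge. Those of Rpl37a and Rpl22 lie before it. Another start may be in use for each of these genes. The other starts shown lie at or near the edge. A motif match is a string of letters and was not tested as a binding site.

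Gene counts came to between 36661334 and 49601719 per library. Each of the 24 libraries placed between 2.85% and 7.97% of them in the 83 genes. The 8 neutrophil granule genes listed for the cell type check (Ltf, Ngp, Camp, S100a8, S100a9, Mmp8, Mmp9 and Cxcr2, all with reads in each group) summed to 20247 and 27463 CPM (counts relative to the TMM-scaled library size, so that levels of 1 gene compare between libraries) at 120 h, against 9.99 and 11.2 CPM at 0 h. The 7 myeloid progenitor genes (Ptprc, Spi1, Cebpa, Kit, Cd34, Mpo and Lyz2) summed to between 2136 and 2511 CPM at 120 h, against between 7746 and 7985 CPM at 0 h. At 36 h of withdrawal they stood higher than at 0 h, at between 11600 and 12516 CPM. Lyz2 went against the fall of the sum, with reads at 120 h and none at 0 h, at 36 h or in R07. In the R07 libraries the granule genes stayed between 18.7 and 142 CPM and the progenitor genes between 8061 and 14073 CPM. Macrophage markers reached 4208 to 4338 CPM at 120 h, against 3.99 to 4.29 CPM at 0 h, where C1qa had no read, and eosinophil markers reached 1462 to 1753 CPM at 36 h, against 34.0 to 35.3 CPM at 0 h, where Epx and Ccr3 had none. In R07 the eosinophil markers summed to between 91.8 and 260 CPM. Mast cell and basophil markers summed to between 365 and 1210 CPM in R07. In withdrawal they summed to 244 to 286 CPM at 0 h, 521 to 599 CPM at 36 h and 34.6 to 39.2 CPM at 120 h. B cell markers summed to between 125 and 186 CPM in R07, near the 129 to 136 CPM at 0 h. They stood at 3.87 to 4.10 CPM at 120 h of withdrawal. The part of these cell states in the results below was not tested, and in bulk RNA fewer cells of a type and less RNA per cell cannot be told apart.

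By their median, ribosomal protein transcripts stood above both 0 h libraries at 4 h and from 24 to 72 h after estradiol withdrawal. They stood below both at 120 h. Few single members carried the rise at 4 h: 3 were called higher in the tests below, a smaller share than the 7.22% of all genes. The share of all gene counts held by the 83 genes was 5.19% and 5.76% in the libraries at 0 h. This share was 6.70% and 6.11% at 4 h, and 6.16% and 6.08% at 8 h. It was 5.60% (A) and 7.03% (B) at 12 h, 6.41% and 6.76% at 24 h, 7.37% and 7.03% at 36 h, and 6.73% and 6.12% at 48 h. Later it was 6.41% and 7.61% at 72 h, 4.18% and 4.52% at 96 h, and 2.85% and 3.25% at 120 h. The 120 h libraries thus had the lowest shares of the course and do not overlap those of any other time. On TMM-scaled values the median member stood 0.28 (A) and 0.17 (B) above its 0 h mean on the log2 scale at 4 h. At 8 h it stood 0.07 above that mean in both libraries, within reach of 0 h library B, which stood 0.10 above. At 12 h it stood 0.05 (A) and 0.42 (B) above the mean, so library A was within that reach too. The median member stood 0.54 and 0.44 above the mean at 36 h, 0.37 and 0.64 above it at 72 h, and 0.42 and 0.30 below it at 120 h. The highest mean level was reached at 72 h by 44 of the 83 genes, at 36 h by 31, at 24 h by 7 and at 96 h by 1, and the lowest at 120 h by 65. The share of reads that mapped to more than 1 place, which can come from ribosomal protein pseudogenes, was 6.23% and 6.30% at 120 h, against 7.19% and 7.60% at 0 h, and its part in the course was not tested.

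**Figure D1:**
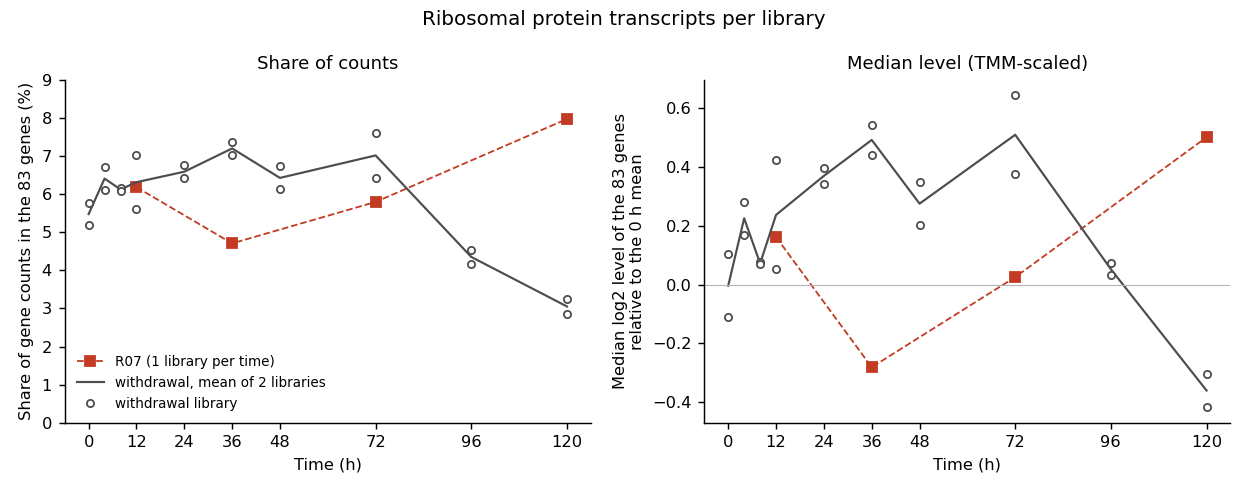
Share of gene counts in the 83 genes (left, %) and median log2 level of the 83 genes relative to their 0 h mean, TMM-scaled (right), against time in hours. Red squares are single R07 libraries, open circles withdrawal libraries and the grey line their mean of 2; the withdrawal share ends at 2.85% and 3.25% at 120 h while the R07 library there stands at 7.97%.

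Tested gene by gene with edgeR across all 20 withdrawal libraries, and called at an adjusted p under 0.05, 82 of the 83 genes changed over the whole course, as did 91.1% of the 14615 genes tested. The exception was Rpl24, which collected 380 counts in all. Against 0 h, 3 members were higher at 4 h (Rpsa, Rpl10 and Rpl3l; 11.7% of all genes were called, 7.22% as higher and 4.53% as lower). None was called at 8 h or at 12 h, where 21.9% of all genes (12.9% as higher, 8.99% as lower) and 16.0% (9.2% and 6.81%) were called; an unadjusted p under 0.05 was reached by 6 and 22 members and by 4991 and 4067 genes, and DESeq2 called no member at 8 h and 3 at 12 h. At 24 h 52 were higher and none lower (27.9% of all genes called, 13.5% as higher and 14.4% as lower), at 36 h 76 higher and none lower (40.9% called, 20.6% and 20.3%), and at 48 h 35 higher and none lower (52.6% called, 25.8% and 26.8%). At 72 h 67 were higher and 2 lower (69.6% called, 34.9% as higher and 34.7% as lower), at 96 h 14 higher and 14 lower (77.4%, 38.7% and 38.6%), and at 120 h 5 higher and 50 lower (79.9%, 39.6% and 40.3%). The median log2 change over the members was 0.37 at 24 h, 0.48 at 36 h, 0.29 at 48 h, 0.49 at 72 h, 0.05 at 96 h and -0.39 at 120 h, with the median of all genes between -0.06 and 0.00 at these times. Measured against 24 h, 74 members were lower at 120 h and 1 was higher, with a median of -0.75 (all genes -0.07; 79.2% called, 40.2% as lower and 38.9% as higher).

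The libraries were also compared by overlap, without a test. Both 4 h libraries lay above both 0 h libraries for 55 members (25.7% of all genes) and below them for none (22.9%), although 3 were called. Both 24 h libraries lay above both 0 h libraries for 81 members (33.0% of all genes), and both 36 h libraries for 80 (35.4%). At 120 h both libraries lay below both 0 h libraries for 56 members (45.0% of all genes) and above them for 8 (43.9%). At 96 h 29 members lay above, 24 below and 30 overlapped, where 43.4% of all genes lay above and 43.4% below.

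The members of a library moved together, which limits what these counts can carry. At 12 h library A was the lower of the pair for 81 of the 83 genes, by a median of 0.37 log2, and at 72 h for 82 by 0.29, while the median gap over all genes was 0.00 at both times. The calls at 24 h rest on single libraries: the refit lacking library A of 0 h called 1 member, that lacking A of 24 h called 28 and that lacking B of 24 h called 8. At 36 h the refits lacking A of 0 h or A of 36 h called 32 and 46. At 48 h those lacking A of 0 h or A of 48 h called 3 each, and at 12 h 36 members were called once A of that time was removed. At 120 h between 38 and 57 members were called with 1 library left out, against 55 with all. Scaling by library totals alone, without TMM factors, moved the 120 h median of all genes to -0.50 and of the members to -0.83, with 1 higher and 74 lower. At 96 h it turned the member median to -0.31 against -0.37 for all genes, with 3 higher and 43 lower, so no direction is given for that time.

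**Figure D2:**
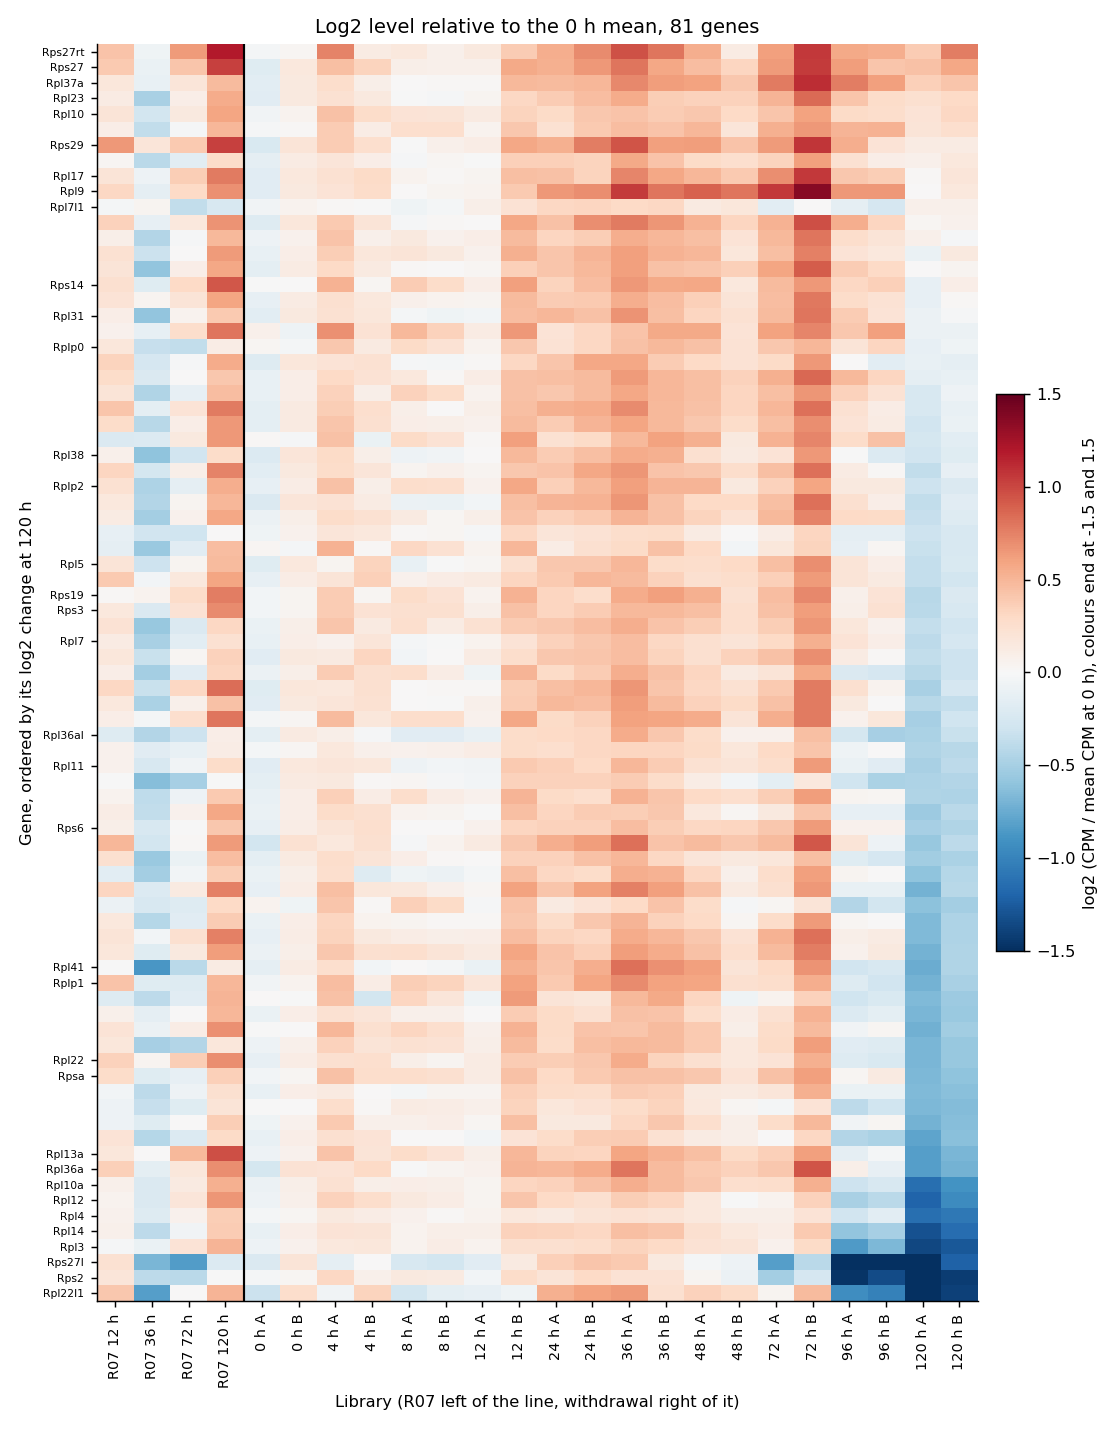
Log2 of the CPM in each library over the gene's mean CPM at 0 h, for 81 of the 83 genes in rows (all but Rpl3l and Rpl24), ordered by their log2 change at 120 h and partly labelled, with the 4 R07 libraries left of the line and the 20 withdrawal libraries right of it. Red is above and blue below the 0 h mean; most rows are red at 36 and 72 h and blue at 120 h, and whole columns (12 h A and B, 72 h A and B) differ together.

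Both subunits took part. At 36 h 31 of 33 small subunit genes and 42 of 47 large subunit genes outside the stalk rose, with median log2 changes of 0.52 and 0.48. At 120 h 21 of 33 small and 28 of 47 large subunit genes fell, with medians of -0.34 and -0.45. Over all genes 20.6% were called higher at 36 h and 40.3% lower at 120 h. All 3 stalk genes, whose proteins form the arm that recruits translation factors, rose at 36 h (0.45 to 0.65) and at 72 h. At 120 h Rplp1 fell (-0.62), and Rplp0 and Rplp2 were not called, at -0.11 and -0.28.

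Rps6 is the small subunit protein that S6 kinases phosphorylate downstream of mTORC1. It had 381 and 395 CPM at 120 h, against 496 and 581 CPM at 0 h. It had 712 and 841 CPM at 72 h, so both 72 h libraries were above and both 120 h libraries below those at 0 h. The log2 changes against 0 h were 0.51 ± 0.10 at 72 h (edgeR adjusted p = 0.000169) and -0.49 ± 0.10 at 120 h (edgeR adjusted p = 0.00019), each with its standard error. Rpsa, which helps assemble the small subunit, changed by -0.66 and Rps3, at the mRNA entry channel, by -0.34 at 120 h.

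The deepest falls at 120 h were spread over both subunits, and 8 members fell more than 2-fold. That is a smaller share than over all genes, whose lower quartile was a log2 change of -1.17, against -0.62 for the members. Rps2, a small subunit protein at chr17:24718116-24721929 (GRCm38), had 444 and 502 CPM at 120 h, against 1315 and 1379 CPM at 0 h. It was already down at 72 h, with 950 and 1134 CPM, when 67 other members were called higher, and had 486 and 531 CPM at 96 h. The log2 change of Rps2 was -0.39 ± 0.12 at 72 h (edgeR adjusted p = 0.00583; -0.27 and not called without 72 h library A) and -1.53 ± 0.12 at 120 h (edgeR adjusted p = 1.88e-10). Rpl3, which lies at the peptidyl transferase centre, had 534 and 573 CPM at 120 h, against 1313 and 1448 CPM at 0 h, and its log2 change was -1.34 ± 0.10 (edgeR adjusted p = 1.16e-10). At 96 h Rpl3 stood between these levels, at 767 and 864 CPM. Rpl14, Rpl4, Rpl12 and Rpl10a, all of the large subunit, and the paralogues Rpl22l1 and Rps27l made up the rest of the 8.

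Another set of members kept or raised its level. Rpl9, of the large subunit, was the highest of the more abundant members at 24, 36, 48 and 72 h. It had 2211 and 2728 CPM at 72 h, against 945 and 1172 CPM at 0 h, a log2 change of 1.21 ± 0.13 (edgeR adjusted p = 5.64e-08). At 120 h it had 1061 and 1176 CPM, a log2 change of 0.06 that was not called. Next to it at 72 h stood Rpl37a (0.93), Rpl17 (0.88) and Rps29 (0.85). At 120 h the members called higher were Rpl3l, Rps27rt, Rps27, Rpl37a and Rpl10, the last of which joins the large subunit late and completes its catalytic site. Rps27 had 424 and 465 CPM at 120 h, against 274 and 349 CPM at 0 h, without overlap. Its log2 change was 0.49 ± 0.15 (edgeR adjusted p = 0.00594), that of Rpl37a 0.37 ± 0.14 and that of Rpl10 0.24 ± 0.10. Scaled by library totals, Rpl37a and Rpl10 turned to -0.08 and -0.20 and were not called, and Rps27 and Rps27rt stood at 0.05 and 0.11 and were not called either, so of the 5 higher calls that of Rpl3l alone held under both scalings. Rpl23 stood at 0.25 and was not called.

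**Figure D3:**
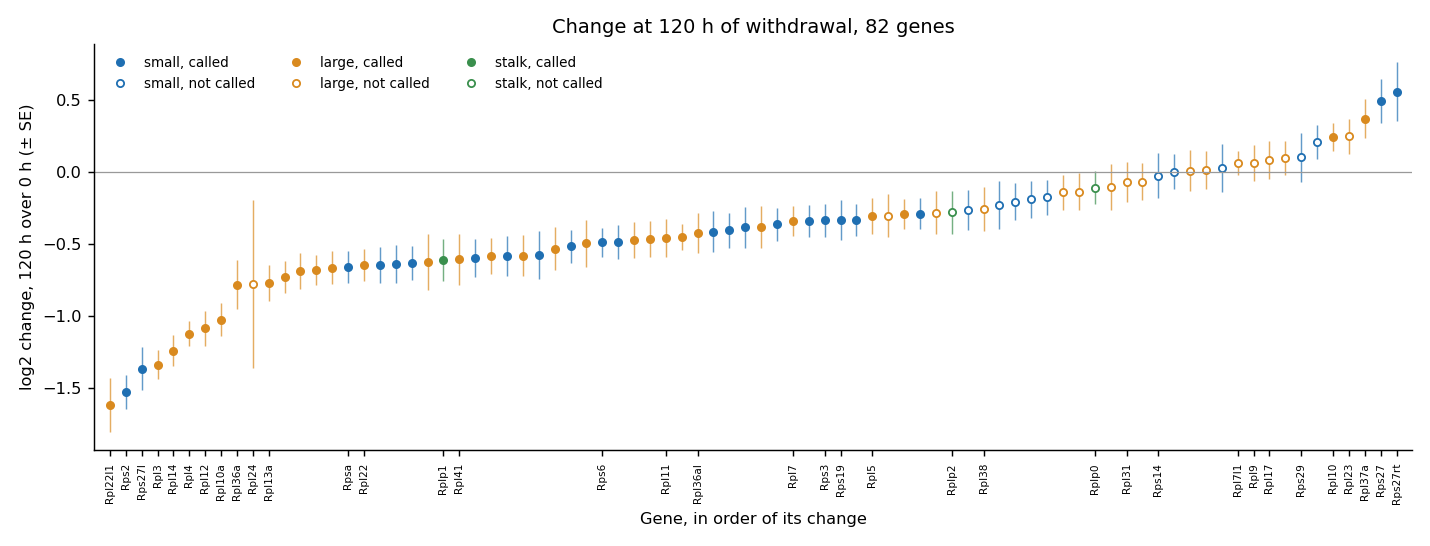
Log2 change at 120 h over 0 h of withdrawal (edgeR, ± SE) for 82 of the 83 genes (all but Rpl3l, at 4.37), in order, partly labelled. Colours give the subunit, filled points a call at an adjusted p under 0.05; Rpl22l1, Rps2, Rps27l and Rpl3 lie lowest and Rps27 and Rps27rt highest.

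Some ribosomal protein genes have a paralogue, and 5 such pairs could be followed as a ratio of counts within a library, which scaling cannot move. Rps27l, a paralogue of Rps27 that p53 induces, had 50 and 60.7 CPM at 120 h, against 121 and 160 CPM at 0 h. The log2 ratio of Rps27l to Rps27 was -3.08 and -2.94 at 120 h, against -1.18 and -1.12 at 0 h, without overlap. The mean ratio at 120 h was 0.276 of that at 0 h. It held between -1.74 and -1.12 in every library to 48 h, stood at -2.62 and -2.61 at 72 h and at -3.42 and -3.24 at 96 h. The longest stretch of bases shared by the transcripts of the 2 genes was 11, so reads of 101 bases should part them.

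Rpl22l1 is the paralogue of Rpl22, and in mice the Rpl22 protein is known to hold its expression down. It had 27.3 and 36.3 CPM at 120 h, against 77.0 and 115 CPM at 0 h, the lowest log2 change of all members at that time (-1.62 ± 0.19, edgeR adjusted p = 9.23e-08). Rpl22 itself changed by -0.65. Their log2 ratio was -2.82 and -2.52 at 120 h, against -1.89 and -1.54 at 0 h, a mean difference of -0.96. In the remaining pairs the ratio was higher at 120 h than at 0 h, though not at every time between. The mean log2 ratio of Rpl7l1, which is thought to act in ribosome assembly, to Rpl7 was 0.40 higher at 120 h than at 0 h, and that of Rpl36al to Rpl36a 0.34 higher. At 72 h these means stood lower than at 0 h, at -3.68 for Rpl7l1 to Rpl7, against -3.18 at 0 h, and at -1.14 for Rpl36al to Rpl36a, against -0.71 at 0 h. No test was made of these changes in ratio with time.

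Rpl3l, a form of Rpl3 known from heart and skeletal muscle, had 3.87 and 4.31 CPM at 120 h (140 and 125 reads), against 0.202 and 0.184 CPM at 0 h (8 and 9 reads). Its log2 change was 4.37 ± 0.28 (edgeR adjusted p = 9.16e-12). The gene lies on the plus strand of chromosome 17 just before Msrb1 on the same strand, and Msrb1 had 982 and 874 CPM at 120 h, against 64.8 and 77.4 CPM at 0 h. The part of reads from Msrb1 in the rise of Rpl3l was not tested. Rps27rt, a retrocopy of Rps27 at the start site shown above, shares a run of 341 bases with Rps27, so that its values (5.64 and 7.38 CPM at 120 h, against 4.25 and 4.45 CPM at 0 h) may hold reads of the parent. Rpl24 overlaps Gm28037 on the same strand, as Rpl13, Rpl13a and Rpl19 overlap other genes, and the part of the overlap in its 380 counts was not tested.

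**Figure D4:**
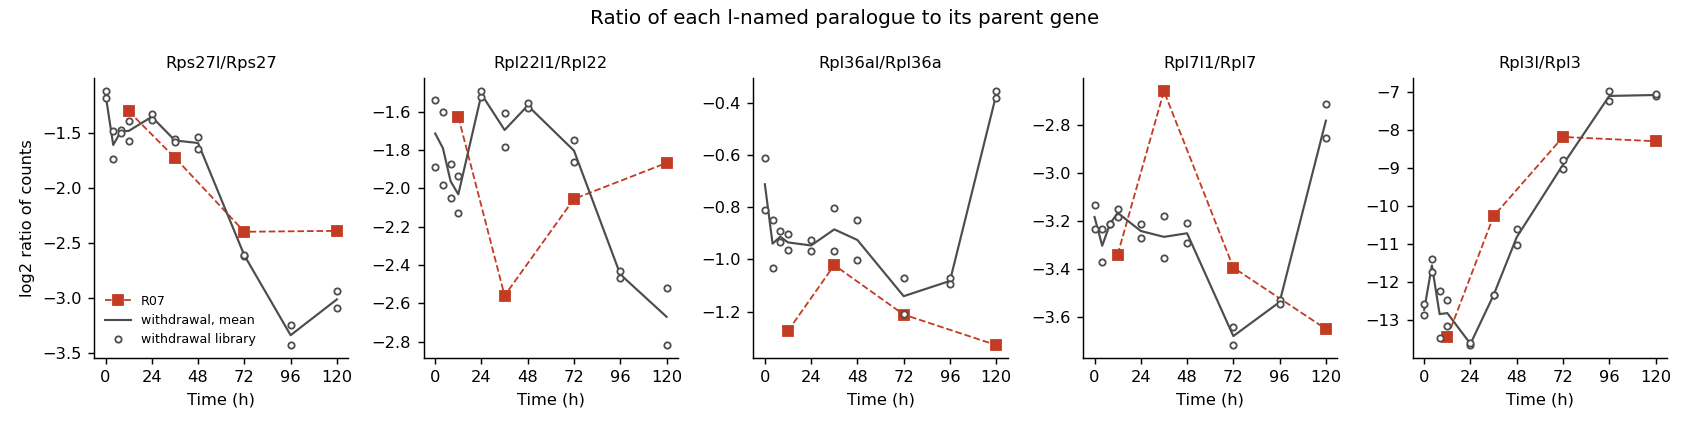
Log2 ratio of the counts of each paralogue to its parent gene, within a library, against time in hours, on a separate axis for each of 5 pairs. Red squares are single R07 libraries, open circles withdrawal libraries and grey lines their mean of 2; Rps27l to Rps27 ends at -3.08 and -2.94 and Rpl3l to Rpl3 rises by 5.65 over the course.

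A list of 10 members was read whose human counterparts are mutated in Diamond-Blackfan anaemia, an inherited failure of red cell production, or lie in the region lost in the 5q- syndrome. Rps19, Rps14, Rpl5 and Rpl11 are among them. The list is not complete, and members outside it with such counterparts include Rpl15 and Rpl27, which were not called at 72 h. All 10 of the list rose at 36 h (log2 changes of 0.38 to 0.60) and at 72 h (0.45 to 0.63). At 120 h 7 of the 10 fell, and Rps10, Rps14 and Rpl35a were not called, at -0.18, -0.03 and -0.28. The 83 members as a whole moved in the same way: 76 rose at 36 h, 67 rose at 72 h and 50 fell at 120 h. Over all genes 20.6% rose at 36 h, 34.9% rose at 72 h and 40.3% fell at 120 h. Rpl5 and Rpl11, which together bind the p53 regulator Mdm2 when ribosome assembly is disturbed, changed by -0.31 and -0.46. Rps19 had 321 and 367 CPM at 120 h, against 415 and 442 CPM at 0 h.

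The members were also read by whether their start window held a pyrimidine run. At 120 h the median log2 change was -0.45 over the 35 with a run, of which 22 fell and 2 rose, and -0.32 over the 28 without one, of which 15 fell and 3 rose, where 40.3% of all genes fell and 39.6% rose. At 36 h the medians were 0.48 and 0.49. These are descriptions, and the difference between the classes was not tested. A window may miss the start in use and a run may lie before it, so the classes do not tell which mRNAs bear a TOP motif.

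In the R07 libraries the order of high and low times was another one. The 83 genes held 6.18% of gene counts at 12 h of R07, 4.71% at 36 h, 5.79% at 72 h and 7.97% at 120 h, and this last share was the highest of the 24 libraries. At 36 h the R07 library lay below both withdrawal libraries for 82 of the 83 genes, and at 120 h above both for 82, where 44.4% of all genes lay below at 36 h and 49.7% above at 120 h. At 72 h it lay below both for 75 members (44.0% of all genes) and above both for 2 (44.8%). At 12 h it lay below both for 21 (38.1%) and above both for 8 (40.6%), and between them for 54. The median difference of the members, R07 minus withdrawal, was -0.11 log2 at 12 h, -0.79 at 36 h, -0.48 at 72 h and 0.85 at 120 h.

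**Figure D5:**
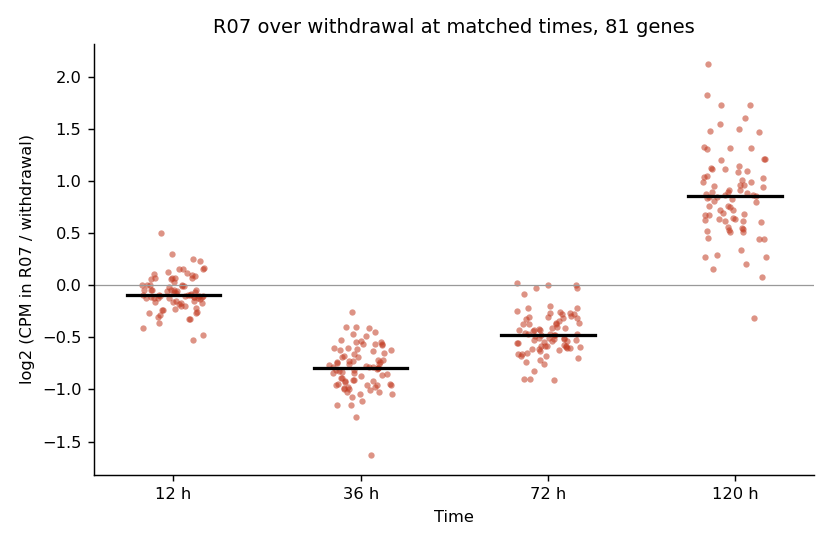
Log2 of the CPM in the R07 library over the withdrawal libraries (mean of their 2 log2 values) at each matched time, 1 point per gene for 81 genes (all but Rpl3l and Rpl24), with the median as a black line. The points centre near -0.79 at 36 h and near 0.85 at 120 h.

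Averaged over the 4 matched times, no member was called different between R07 and withdrawal (edgeR with an arm term, 16.6% of 13641 genes called, 10.5% as higher and 6.09% as lower) while the differences at single times had opposite signs. An unadjusted p under 0.05 was reached by 1 member and by 4512 genes, and DESeq2 called 1 member. The median member difference was -0.10, against 0.06 for all genes, and it turned to 0.14 with library totals, so the average has no stable sign. Without the 120 h R07 library 21 members were called. Against the 2 libraries at 0 h, with the 4 R07 libraries as 1 arm, edgeR called no member and no gene at all (0.0% of 13704). An unadjusted p under 0.05 was reached there by 1 member and by 2867 genes, and DESeq2 called no member.

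Fits at a single R07 time were added after the data had been seen, and they assume that the lone R07 library varies as the withdrawal libraries do. At 36 h edgeR called 81 members lower and 1 higher in R07 than in withdrawal (47.1% of 15371 genes called, 21.6% as lower and 25.5% as higher). At 120 h it called 75 members higher and 1 lower (72.4% called, 37.6% as higher and 34.7% as lower). The change of the difference, 120 h minus 36 h, was called higher for 81 members and lower for 1 (64.4% called, 33.5% as higher and 30.9% as lower), with a median of 1.68 log2 over the members and 0.08 over all genes.

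The size of the difference varied between members. Rpl22l1 had 137 CPM in R07 at 120 h, against 27.3 and 36.3 CPM in withdrawal, the highest difference of the more abundant members (2.11 ± 0.21, edgeR adjusted p = 1.12e-08). Rpl3 followed, with 1960 CPM in R07 and 534 and 573 CPM in withdrawal (1.82 ± 0.12, edgeR adjusted p = 8.21e-12), and then Rpl12 (1.73) and Rpl13a (1.72). Both Rpl22l1 and Rpl3 were also among the 4 lowest members at 120 h of withdrawal, and the 2 comparisons share those libraries. Rps2 had 1337 CPM in R07 at 120 h, against 444 and 502 CPM in withdrawal. Rpl7l1 was the member called lower, with 134 CPM in R07 and 168 and 167 CPM in withdrawal (-0.32 ± 0.10, edgeR adjusted p = 0.00905), and it turned to 0.21 and was not called when scaled by library totals. Rplp0, the core of the stalk, had 3054 CPM in R07 and 2598 and 2703 CPM in withdrawal (0.20 ± 0.14) and was not called.

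At 36 h the lowest member in R07 was Rpl41, the shortest of the ribosomal proteins. It had 245 CPM in R07, against 795 and 723 CPM in withdrawal, a log2 difference of -1.63 ± 0.23 (edgeR adjusted p = 6.92e-06). Rpl22l1 (-1.28), Rpl31 (-1.16) and Rpl38 (-1.15) came next. The smallest differences among the more abundant members were those of Rpl7l1 (-0.26), Rpl4 (-0.40), Rpl22 (-0.41) and Rpl3 (-0.41). Rpl3l was the 1 member called higher, at 1.04 CPM (50 reads) in R07 and 0.328 and 0.317 CPM (15 reads each) in withdrawal, and Msrb1 downstream of it had 200.1 CPM in R07, against 420.3 and 404 CPM in withdrawal.

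The paralogue ratios were compared between R07 and withdrawal over the 4 matched times by an exact permutation test (two-sided, 81 arrangements of the R07 label within times, smallest possible p 0.0123), with adjustment over the 5 pairs. None passed. The log2 ratio of Rpl36al to Rpl36a was lower in R07 at 4 of 4 times, by a mean of 0.38, and the exact permutation p = 0.01235 is the smallest the design allows, with an adjusted p = 0.06173. That of Rps27l to Rps27 was higher in R07 at 3 of 4 times, by a mean of 0.21 (exact permutation p = 0.08642, adjusted p = 0.216). For Rpl22l1 to Rpl22 the difference was -0.86 at 36 h and 0.80 at 120 h, with a mean of 0.02. For Rpl7l1 to Rpl7 it was 0.61 at 36 h and -0.87 at 120 h, with a mean of -0.04. For Rpl3l to Rpl3 the mean was 0.24 (exact permutation p = 0.679).

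Some ribosomal proteins carry other names, among them Fau and Rack1. Fau, which is made as a ubiquitin-like fusion with a small subunit protein, had a mean of 693 CPM at 120 h, against 409 CPM at 0 h, and rose (log2 change 0.74 ± 0.16, edgeR adjusted p = 0.000217). Rack1, a small subunit scaffold, changed by 0.38 at 72 h and -0.35 at 120 h.

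Genes around the ribosome were read from lists chosen with earlier results of these data known, with TMM scaling alone. Of 22 translation factors and other mRNAs with TOP motifs, 16 fell and 2 rose at 120 h (median -0.72, all genes -0.06). Of all genes 40.3% fell and 39.6% rose then. In R07 at 120 h the median difference of the 22 from withdrawal was 0.69 (all genes 0.10). Eef1g, a subunit of the factor that recharges the elongation factor Eef1a1, changed by -1.85 at 120 h, and Npm1, a nucleolar assembly chaperone, by -2.51, whereas Eef1a1 itself stood at -0.07 and was not called. The 2 that rose were Tpt1 (1.24) and the filament gene Vim (1.55). At 36 h 4 of the 22 were higher and 4 lower, near the 20.6% and 20.3% of all genes, with a median of 0.01. At that time 76 of the 83 ribosomal protein genes were called higher. Of 6 measured host genes of small nucleolar RNAs, which guide rRNA modification, 5 rose at 36 h, where 20.6% of all genes rose. At 120 h 2 of the 6 fell, no larger a share than the 40.3% of all genes. In R07 at 120 h their median difference from withdrawal was 1.86 (all genes 0.10), led by Snhg5 (4.28).

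The 13 genes listed as ribosomal protein chaperones and importins all fell at 72 h and at 120 h, with medians of -1.25 and -2.16. By 36 h 11 of them had fallen. Over all genes 20.3% fell at 36 h, 34.7% at 72 h and 40.3% at 120 h. Nap1l1 is also among the 22 genes above. Ipo4 changed by -3.12, Nap1l1 by -3.03 and Grwd1, the chaperone of Rpl3, by -2.97 at 120 h. In R07 at 120 h the median difference of the 13 from withdrawal was 1.49 (all genes 0.10). Of 12 measured genes of ribosome recycling, rescue and hibernation 9 fell and 1 rose at 120 h (median -1.26, all genes -0.06, of which 40.3% fell and 39.6% rose), with Ifrd2, which holds idle ribosomes, at -4.28 and Abce1, which splits them, at -2.02. Of 19 tested mTORC1 and 4E-BP regulators 8 rose and 7 fell at 120 h (median 0.11), shares near those of all genes (39.6% and 40.3%). Larp1, the TOP mRNA binder, changed by -1.09. The mTORC1 inhibitors went both ways, with Sesn2 and Sesn1 at 1.47 and 1.32 and their relative Sesn3 at -2.55.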

How the data were processed

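The authors deposited 1 table of raw whole-number counts per gene and library, with no normalization, for all 24 libraries. Per the submitters' processing notes it was made with STAR 2.4.2a and Picard on mm10; the counting program, its strand setting and the annotation are not given in the sources used here. The 4 rows that name no gene (multimapping reads were 6.23 to 8.72% of a library) entered no library size and no test. Gene symbols and positions came from GENCODE M21 (GRCm38) and start sequences from RefSeq (GRCm38.p6). Some families have processed pseudogenes that can take reads away as multimapping. The members and the other gene lists were chosen with earlier results of these data known. Genes named are fixed sets (paralogue pairs, stalk, Rps6, Rpsa, Rps3, disease genes), the 4 highest and 4 lowest members of a comparison with a mean log2 CPM of 3 or more, and members called against the median member.

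Counts were fitted with edgeR 4.0.16 (limma 3.58.1, R 4.3.3): TMM factors, filterByExpr, quasi-likelihood tests, Benjamini-Hochberg adjustment over all genes tested. The 20 withdrawal libraries shared 1 fit with time as a factor and 10 residual degrees of freedom. Levels are CPM on TMM-scaled library sizes. Ratios used a prior count of 0.5. On simulated counts with 200 genes changed 2-fold, 97.5% were recovered at 120 h against 0 h (13452 genes) and 99.5% for R07 against withdrawal. For R07 against 0 h 98.5% and for R07 at 120 h 90.5% were recovered. False calls made up 6.25%, 2.93%, 8.37% and 1.63% of the calls, in that order. Genes were drawn independently, few changed, and the R07 arm changed alike at all times. The data differ in each of these, so the shares do not give the power for the members. Alternatives were RLE factors, library totals, scaling without the members, no low-count filter, DESeq2 1.42.0, other library sets, a block on the column letter and each library left out. A few single-gene results are not reported here.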

Additional observations from a re-analysis of the deposited data

Results flagged for a closer look

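The difference between R07 and withdrawal changed with time. The change from 36 h to 120 h, in the fit of all 24 libraries, was called higher for 81 of the 83 ribosomal protein genes and had a median of 1.68 log2 over the members, where 33.5% of all genes were called higher. The R07 libraries that carry it are single. The progenitor, granule, macrophage, eosinophil, mast cell and basophil, and B cell markers also differed between R07 and withdrawal at 36 or 120 h, and their part in the result was not tested.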

How the results depend on the processing

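The calls at 36, 72, 96 and 120 h stayed within 1.5 times under every alternative tried except library totals at 96 h and a left-out library at 36 h, and those between 120 h and 24 h, over the whole course and at single R07 times under all tried. Library totals without TMM factors called 26 members at 24 h, 17 at 48 h, 46 at 96 h and 2 at 8 h. Without a filter on low counts 15 were called at 4 h, 6 at 8 h, 27 at 12 h and 55 at 48 h. Fitting only the 4 libraries compared called 1 at 4 h, 17 at 8 h and 5 at 12 h. DESeq2 called 3 at 12 h and 1 for R07 against withdrawal, where the late times alone also gave 1. R07 against 0 h gave 1 with the late R07 times alone and 2 with all 24 libraries in the fit. The cause was not tested in any of these.

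With 1 library left out, member calls ranged from 0 to 8 at 4 h, 0 to 1 at 8 h, 0 to 36 at 12 h, 1 to 51 at 24 h, 32 to 73 at 36 h, 3 to 42 at 48 h, 48 to 73 at 72 h, 20 to 25 at 96 h, 38 to 57 at 120 h, 67 to 72 at 120 h against 24 h, 80 to 82 over the course, 0 to 21 for the R07 arm, 0 to 1 for R07 against 0 h, 77 to 79 for R07 at 36 h, 70 to 75 for R07 at 120 h and 80 to 82 for the difference between R07 times. The 36 in that list came without 12 h library A.

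Medians of the members that changed sign were -0.044 at 8 h and -0.072 at 96 h without 0 h library A (up to 0.18 and 0.17 without library B), -0.31 at 96 h with library totals, and, for the R07 arm, 0.14 with library totals, 0.11 without the 36 h and 0.014 without the 72 h R07 library (lowest -0.42, without the 120 h one). R07 against 0 h gave -0.028 without 0 h library A and -0.087 without the 120 h R07 library (up to 0.20 without the 36 h one). With library totals Rpl10 stood at -0.20 at 120 h and -0.10 at 96 h, Rpl37a at -0.075 at 120 h, Rps7 at -0.083 at 96 h and Rpl7l1 at 0.21 in R07 at 120 h. The ratio differences of Rpl22l1 to Rpl22 and of Rpl7l1 to Rpl7 turned to -0.10 and 0.0082 with the late times alone. With 1 library left out they ranged from -0.24 to 0.32 and from -0.25 to 0.24, that of Rpl3l to Rpl3 from -0.37 to 0.72, that of Rps27l to Rps27 from 0.079 to 0.34 and that of Rpl36al to Rpl36a from -0.48 to -0.18. Over 280 values for single genes, 2484 of 2752 alternatives kept direction and call, 263 lost the call and 5 turned.

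The labels do not say whether the letters A and B pair the libraries. Of 45 pairs of times 3 had a correlation of same-letter deviations over 0.1 (median 0.013). Low correlations cannot show that the letters are unpaired. A replicate block on the letter called 1 member at 12 h and 56 at 24 h, 78 at 36 h and 55 at 120 h. For R07 against withdrawal at matched times the block set the R07 libraries with A. It lowered the calls over all genes from 2262 to 653, with no member called in either fit.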
